A study of Mus musculus with 18 samples.

Results

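The genes described here are 39 genes of homologous recombination and of the Fanconi anemia pathway, read from an RNA-seq table of 51912 mouse genes. They were chosen by symbol: a list of 39 gene names, drawn up with earlier results of these data known, was matched to the Ensembl identifiers of the table. All 39 were found and all 39 passed the filter on low counts, among 15710 genes tested. The libraries were made from mouse embryonic fibroblasts (MEFs) of 6 genotypes with 3 libraries each: cells that were *Pole4*+/+ or *Pole4*-/-, each carrying 2 copies of *Trp53* (*Trp53*+/+), 1 copy (*Trp53*+/-) or none (*Trp53*-/-). *Pole4* encodes a small accessory subunit of DNA polymerase epsilon, and *Trp53* encodes the tumor suppressor TRP53 (p53). The cells were primary, at passage 1, and came from crosses of double heterozygous mice in the C57BL/6 background; the embryos were taken at a single stage of timed matings, and the cells grew in 5% oxygen with 15% FBS. The labels number the replicates but do not tie each number to a separate embryo, so the p-values below measure the spread between these libraries.

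Homologous recombination repairs DNA breaks and broken replication forks by copying the sister chromatid. Nucleases first resect the broken end, the BRCA1 and BRCA2 complexes prepare the single strand to invade the intact copy, motor proteins and accessory factors assist strand exchange, and the BLM complex or nucleases take the joint molecules apart. The Fanconi pathway acts on crosslinked DNA: a core complex with the E2 enzyme UBE2T attaches ubiquitin to FANCI and FANCD2, which bring nucleases and recombination to the lesion. Many of these genes are known to be transcribed mainly in S and G2 phase, so their level in a culture also follows how many cells cycle; in bulk RNA, fewer expressing cells and less RNA per cell cannot be told apart.

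Library totals ran from 9535971 to 35319918 counts, and ribosomal RNA genes took between 0.968% and 42.5% of them. The libraries were not stated to keep strand, and 9 of the 39 genes share at least 10% of their exonic bases with another gene: *Rad54b* (35.9%, partly with *Fsbp* on the same strand) and, with genes on the opposite strand, *Fancc* (18.6%), *Fanci*, *Rad54l*, *Fancf*, *Fancl*, *Parpbp*, *Eme1* and *Fanca* (10.5%). Their values are uncertain to that extent. The counts of the 39 genes ran from 4 (*Xrcc3* and *Rmi2*, in their lowest libraries) to 1739 per library. *Trp53* itself stood at 64.2 to 96.1 CPM (counts relative to library size, with TMM scaling) in the *Trp53*+/+ libraries, at 48.4 to 59.6 CPM in *Trp53*+/- and at 8.65 to 12.1 CPM in *Trp53*-/-. *Pole4* stood at 14.2 to 26.4 CPM in *Pole4*+/+ and at 9.26 to 11.99 CPM in *Pole4*-/- libraries, so its reads persisted in the null cells. Of 11 fibroblast markers, the collagen *Col1a1* stood at 3892 to 9447 CPM, *Pdgfra* at 14.02 to 254 CPM, and *Dcn* and *Lum* at 1.45 to 35.01 CPM and 1.09 to 41.7 CPM. Markers of other cell types were also present. The summed levels reached 59.7 CPM for 10 macrophage markers (28.2 CPM from *Lyz2*, 8.89 CPM from *Csf1r*), 6.17 CPM for 7 endothelial markers (4.71 CPM from *Kdr*), 42.2 CPM for 7 epithelial, 79.6 CPM for 8 skeletal muscle and 75.9 CPM for 7 neuron markers, each in its highest library. The 6 erythroid markers reached 0.647 CPM, and only the endothelial *Cldn5* and the erythroid *Slc4a1* were at 0 in all 18 libraries. Sex, read from *Xist* and *Ddx3y*, was not balanced. All *Pole4*+/+ *Trp53*+/+ and *Pole4*+/+ *Trp53*-/- libraries had high *Xist*, all *Pole4*+/+ *Trp53*+/- libraries had high *Ddx3y*, and the *Pole4*-/- genotypes were mixed. One library, *Pole4*+/+ *Trp53*-/- replicate 1, held 2.76 CPM of the Y-linked *Ddx3y* beside 857 CPM of *Xist*, and it also stood apart from the other two of its genotype in the genes below. Calls in the comparisons that it enters are given with and without it.

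In *Pole4*-/- cells, loss of *Trp53* went with higher levels of most recombination and Fanconi genes. Of the 39 genes, 29 were higher in *Trp53*-/- than in *Trp53*+/+ libraries and 1, *Rad51d*, was lower, at an adjusted p under 0.05 (edgeR's quasi-likelihood test, Benjamini-Hochberg adjustment over all genes tested). Of all genes tested, 21.8% were called higher and 20.8% lower in this comparison. The median log2 fold change of the 39 genes was 1.12, against -0.02 for all genes, and the single values ran from -0.42 for *Rad51d* to 2.12 for *Exo1*. For 30 of the 39 genes every *Trp53*-/- library exceeded every *Trp53*+/+ library, where 28.5% of all genes showed this. The genes not called were *Rad51b*, *Rad51c*, *Fancc*, *Fance*, *Fancf*, *Fancg*, *Fancl*, *Mus81* and *Slx4*. All 29 higher calls were kept whichever of the 6 libraries was left out, and the *Rad51d* call was not. In *Pole4*+/+ cells the same contrast gave 5 higher genes and none lower, described further on, and its values stand beside some of the genes here.

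**Figure D1:**
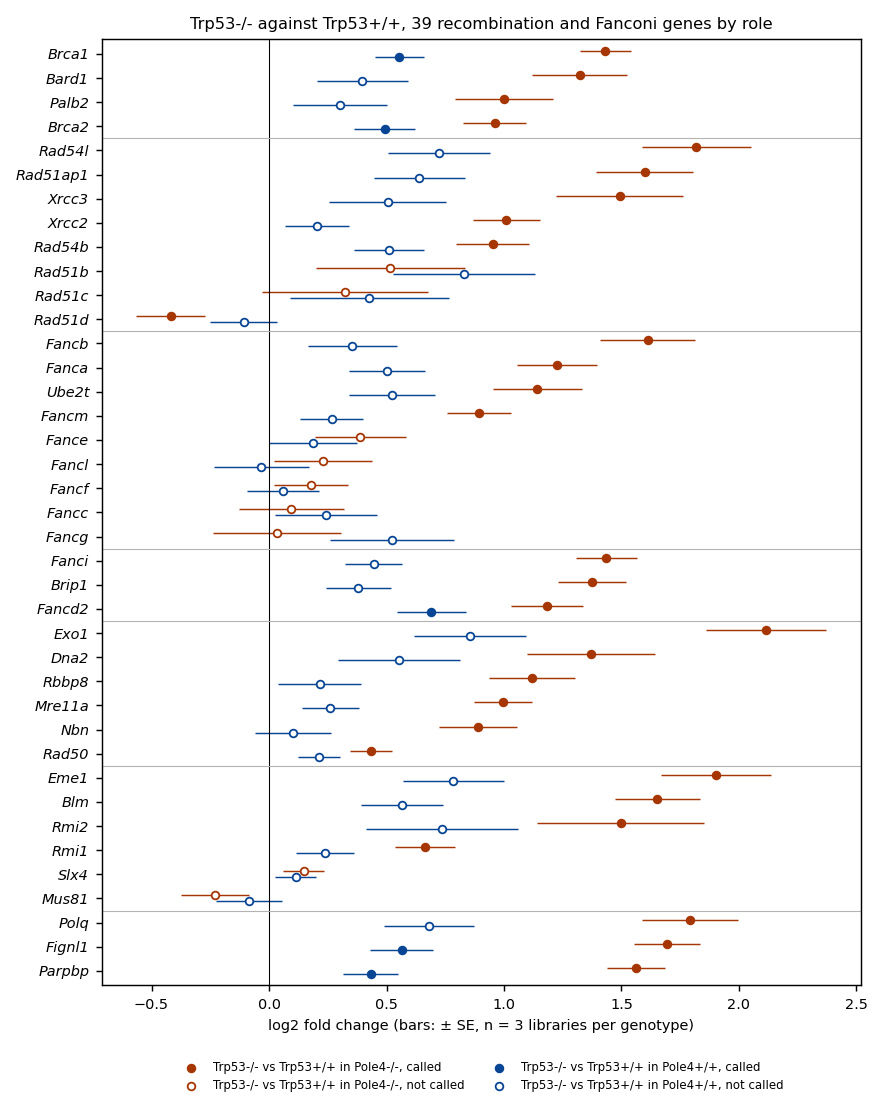
Log2 fold change of each of the 39 genes in *Trp53*-/- against *Trp53*+/+ cells, on the horizontal axis, in the *Pole4*-/- (brown) and *Pole4*+/+ (blue) backgrounds, with bars of ± 1 SE (n = 3 libraries per genotype). Filled points passed an adjusted p of 0.05 and lines separate the 7 roles. The brown points run from -0.42 to 2.12 with a median of 1.12, and the blue ones have a median of 0.43.

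The promoter windows of these genes were searched for short sequence words of cell-cycle promoters. RefSeq's table for build GRCm38.p6 held a window (250 bases before to 50 bases after the start site) for 30 of the 39 genes. Words were sought on both strands: TTTCCCGC, TTTCGCGC, TTTGCCGC and TTTGGCGC for the E2F site, TTTGAA and TTCGAA for the cell-cycle homology region (CHR), and CCAAT for the CCAAT box; none of them contains another. An E2F word stood in 5 of the 30 genes (16.7%), *Brca2*, *Bard1*, *Fancg*, *Rad51c* and *Rmi1*, against 4.71% of the tested genes that have a window and 2.6% of all genes in the table. A CHR word stood in 6 of 30 (20%), against 16.4% of the tested genes. CCAAT stood in 19 of 30 (63.3%), against 43% of the tested genes. Among genes called higher in *Pole4*-/- cells, 3 of 21 held an E2F word, and among the others 2 of 9. Of the members with full values below, *Brca2* and *Fancg* held an E2F word, and the stretch before their RefSeq start site is shown for that reason. The *Fancg* stretch stops short of that site. It lies inside the gene as GENCODE places it (chr4:43002343-43010506, minus strand), downstream of the start given there. *Brca1* and *Parpbp*, chosen after their values were seen, are shown for their calls in most comparisons. Each is written 5′ to 3′ along the gene with the words found in capitals: a CCAAT box in *Brca1*, an E2F word read on the other strand in *Brca2*, an E2F word in *Fancg*, and in *Parpbp* a CCAAT box on the other strand followed by a CHR word.
Brca1, chr11:101551956-101552135, minus strand: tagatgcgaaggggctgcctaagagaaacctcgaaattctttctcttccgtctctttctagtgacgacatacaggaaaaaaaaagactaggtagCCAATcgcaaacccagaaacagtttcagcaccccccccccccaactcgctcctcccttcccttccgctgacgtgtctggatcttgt
Brca2, chr5:150522441-150522620, plus strand: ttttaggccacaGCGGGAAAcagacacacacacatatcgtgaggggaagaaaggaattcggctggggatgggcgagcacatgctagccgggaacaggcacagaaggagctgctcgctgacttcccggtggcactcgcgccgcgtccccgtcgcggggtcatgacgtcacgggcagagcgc
Fancg, chr4:43010332-43010481, minus strand: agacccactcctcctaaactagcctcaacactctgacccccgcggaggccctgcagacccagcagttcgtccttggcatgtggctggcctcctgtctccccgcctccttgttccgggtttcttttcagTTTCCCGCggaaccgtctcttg
Parpbp, chr10:88146942-88147121, minus strand: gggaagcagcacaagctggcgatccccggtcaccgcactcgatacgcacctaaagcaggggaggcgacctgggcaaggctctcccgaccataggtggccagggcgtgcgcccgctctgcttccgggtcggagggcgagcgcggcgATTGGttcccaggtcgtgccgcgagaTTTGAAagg

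The 4 mediator genes were all higher in *Pole4*-/- *Trp53*-/- cells. *Brca1* (chr11:101488764-101551955, minus strand), whose protein promotes end resection and recruits BRCA2 through PALB2, measured 13.8, 13.3 and 15.8 CPM in the *Pole4*-/- *Trp53*+/+ libraries and 37.7, 38.5 and 39.1 CPM in the *Pole4*-/- *Trp53*-/- libraries. The groups did not overlap and the level was 2.698-fold higher without TRP53, a log2 change of 1.43 ± 0.11 (SE; adjusted p = 3.49e-07). In *Pole4*+/+ cells it measured 21.3, 22.3 and 18.6 CPM with and 26.1, 32.7 and 32.9 CPM without *Trp53*, a log2 change of 0.55 ± 0.10 (SE; adjusted p = 0.00599). There too the groups were apart, with replicate 1 the lowest of the *Trp53*-/- libraries. *Brca2* (chr5:150522630-150570329, plus strand), which acts on resected single-stranded DNA as the central mediator of recombination, went from 12.8, 10.8 and 12.8 CPM to 19.96, 23.7 and 27.5 CPM in the *Pole4*-/- background, a log2 change of 0.96 ± 0.13 (SE; adjusted p = 7.02e-05). In *Pole4*+/+ libraries it stood at 16.1, 16.96 and 15.8 CPM and 21.01, 21.3 and 26.7 CPM, a log2 change of 0.49 ± 0.13 (SE; adjusted p = 0.0411). For *Brca2*, as for *Brca1*, no *Trp53*-/- library fell to the level of a *Trp53*+/+ library in either background. *Bard1*, the partner of BRCA1, and *Palb2*, the bridge between BRCA1 and BRCA2, had log2 fold changes of 1.32 ± 0.20 and 1.001 ± 0.21 (SE) in *Pole4*-/- cells.

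The 8 motors and accessory factors of strand exchange split. *Rad54l*, a motor that moves on duplex DNA during strand exchange, read 4.76, 4.42 and 3.75 CPM in *Pole4*-/- *Trp53*+/+ and 15.9, 13.3 and 17.1 CPM in *Pole4*-/- *Trp53*-/- libraries, a log2 change of 1.82 ± 0.23 (SE; adjusted p = 3.23e-05). *Rad51ap1*, which promotes the pairing of strands, read 4.98, 4.51 and 6.16 CPM and 14.6, 15.6 and 16.8 CPM, a log2 change of 1.599 ± 0.21 (SE; adjusted p = 3.60e-05). Both were higher without overlap, by 3.53-fold and 3.03-fold. *Rad54b* (log2 fold change 0.95 ± 0.16, with 35.9% of its exonic bases shared), *Xrcc2* (1.01 ± 0.14) and *Xrcc3* (1.49 ± 0.27) were also called higher, the latter from counts as low as 4. *Rad51d* (chr11:82876434-82890614, minus strand), a subunit of the same complex as *Xrcc2*, went the other way: 9.17, 10.1 and 7.63 CPM against 7.17, 7.12 and 5.901 CPM, a log2 change of -0.42 ± 0.15 (SE; adjusted p = 0.0304). Its groups did not overlap, yet the call was kept in only 3 of 6 fits with 1 library left out and in 9 of 11 alternatives. The adjusted p reached 0.134 without *Pole4*-/- *Trp53*+/+ replicate 2 and 0.193 with scaling by library totals. The log2 change stayed between -0.51 and -0.33 in all these fits. *Rad51b* and *Rad51c* were not called, with log2 fold changes of 0.52 ± 0.32 and 0.32 ± 0.35. The same 8 genes gave no call in *Pole4*+/+ cells, where *Rad54l* read 8.56, 11.1 and 6.17 CPM and 10.5, 14.5 and 17.9 CPM, a log2 change of 0.72 ± 0.22 (SE; adjusted p = 0.0687). Without *Pole4*+/+ *Trp53*-/- replicate 1, 3 of the 8 were called higher there: *Rad51ap1* (adjusted p = 0.00357), *Rad54l* (0.00936) and *Rad54b* (0.0183). Of all genes, 8.58% were called higher and 8.34% lower in that fit.

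The Fanconi core had the lowest share of calls among the roles: 4 of 9 genes, *Fancb*, *Fanca*, *Fancm* and *Ube2t*, were higher in *Pole4*-/- *Trp53*-/- cells and none was lower. *Fancb*, a core subunit encoded on the X chromosome, read 5.58, 5.17 and 4.68 CPM and 14.3, 17.3 and 16.1 CPM, a log2 change of 1.61 ± 0.20 (SE; adjusted p = 2.81e-05). *Fanca*, another core subunit, read 9.36, 8.68 and 7.63 CPM and 19.96, 19.7 and 20.8 CPM, a log2 change of 1.22 ± 0.17 (SE; adjusted p = 6.94e-05). Both sets of libraries were apart, and for *Fancb* the value was 1.61 also with log2 *Xist* as a covariate. *Fancm*, the translocase that anchors the core to DNA, had a log2 fold change of 0.89 ± 0.14, and *Ube2t*, the E2 enzyme, one of 1.14 ± 0.19. *Fancg*, whose RefSeq promoter window holds an E2F word, was the lowest of the role. It read 3.97, 3.42 and 3.35 CPM and 4.63, 3.61 and 2.79 CPM, in overlapping groups. Its log2 change of 0.03 ± 0.27 (SE; adjusted p = 0.94) turned its sign under 4 of the 11 alternatives. The log2 fold changes of *Fancc*, *Fance*, *Fancf* and *Fancl* ran from 0.10 (*Fancc*) to 0.39 (*Fance*).

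The ubiquitinated pair and the helicase *Brip1* were all called higher. *Fanci* (chr7:79391929-79450264, plus strand), which the core complex modifies together with FANCD2, read 5.88, 4.92 and 4.15 CPM in *Pole4*-/- *Trp53*+/+ and 12.3, 15.4 and 13.5 CPM in *Pole4*-/- *Trp53*-/- libraries, a log2 change of 1.44 ± 0.13 (SE; adjusted p = 2.64e-06). *Fancd2*, its partner, read 6.44, 7.01 and 7.496 CPM and 14.7, 15.6 and 17.1 CPM, a log2 change of 1.18 ± 0.15 (SE; adjusted p = 3.83e-05). The groups were apart for each. In *Pole4*+/+ libraries *Fancd2* read 10.2, 9.41 and 7.89 CPM and 13.3, 13.7 and 17.7 CPM, a log2 change of 0.69 ± 0.15 (SE; adjusted p = 0.0132), the lowest of whose *Trp53*-/- values still lay above the highest *Trp53*+/+ value. *Fanci* read 8.83, 9.46 and 9.14 CPM and 11.4, 13.1 and 12.8 CPM there and did not pass the threshold (adjusted p = 0.0502, and 0.0217 without *Trp53*-/- replicate 1). For *Brip1*, the helicase that binds BRCA1, the log2 fold change was 1.37 ± 0.14 with *Pole4* lost and 0.38 ± 0.14 with *Pole4* present.

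All 6 resection genes were higher in *Pole4*-/- *Trp53*-/- cells, and they held the smallest and the largest of the 29 higher calls. *Exo1* (chr1:175880581-175913489, plus strand), the exonuclease of long-range resection, read 7.23, 7.18 and 6.83 CPM and 30.8, 26.8 and 34.9 CPM, a 4.34-fold difference and a log2 change of 2.12 ± 0.26 (SE; adjusted p = 2.48e-05). *Dna2*, the nuclease of the parallel long-range pathway, read 4.12, 3.005 and 2.81 CPM and 8.53, 7.38 and 10.4 CPM, a log2 change of 1.37 ± 0.27 (SE; adjusted p = 0.00106). *Rad50*, the ATPase of the complex that starts resection, read 40.8, 36.9 and 42.8 CPM and 55.8, 48.9 and 58.1 CPM, a log2 change of 0.43 ± 0.09 (SE; adjusted p = 0.00126). The groups of all 3 genes were apart, although the *Rad50* difference was only 1.35-fold, the smallest called higher, and lost its call with scaling by library totals (adjusted p = 0.0986). The partners of RAD50, *Mre11a* and *Nbn*, and their cofactor *Rbbp8* (CtIP) had log2 fold changes of 0.99 ± 0.12, 0.89 ± 0.17 and 1.12 ± 0.18. In *Pole4*+/+ cells none of the 6 passed. On the CPM scale *Exo1* spread most: 14.5, 16.9 and 11.4 CPM with *Trp53* and 14.3, 27.8 and 36.1 CPM without, the first of which is the library that stood apart. Without that library 3 of the 6 were called higher, *Exo1* (adjusted p = 0.000423), *Dna2* (0.0145) and *Mre11a* (0.022), where 8.58% of all genes were.

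Of the genes that dissolve or cut joint molecules, *Blm*, *Rmi1*, *Rmi2* and *Eme1* were called higher and *Mus81* and *Slx4* were not. *Eme1*, the partner of the MUS81 nuclease, read 3.11, 2.504 and 2.68 CPM and 11.5, 9.58 and 10.3 CPM, a 3.73-fold difference and a log2 change of 1.901 ± 0.23 (SE; adjusted p = 2.55e-05). *Blm*, the helicase that unwinds double Holliday junctions, read 11.3, 11.1 and 12.6 CPM and 32.2, 36.4 and 41.1 CPM, a log2 change of 1.65 ± 0.18 (SE; adjusted p = 1.24e-05). *Mus81*, the catalytic partner of EME1, read 9.21, 8.26 and 7.76 CPM and 7.35, 7.49 and 6.76 CPM, a log2 change of -0.23 ± 0.14 (SE; adjusted p = 0.213). So the *Eme1* and *Blm* groups were far apart, and the *Mus81* groups lay next to each other with the *Trp53*-/- libraries the lower, a difference that the test did not call. *Rmi1* and *Rmi2*, subunits of the BLM complex, had log2 fold changes of 0.67 ± 0.13 and 1.496 ± 0.35, the second from counts down to 4, and *Slx4*, the nuclease scaffold, one of 0.15 ± 0.09.

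*Polq*, *Parpbp* and *Fignl1* act beside or against recombination, and all 3 were called higher. *Polq*, the polymerase of theta-mediated end joining, read 8.24, 9.77 and 7.496 CPM and 25.7, 30.3 and 32.7 CPM, a log2 change of 1.79 ± 0.20 (SE; adjusted p = 1.49e-05). *Parpbp* (PARI; chr10:88091432-88146941, minus strand), which restrains recombination at replication forks, read 8.31, 6.76 and 7.63 CPM and 21.6, 22.7 and 23.1 CPM, a log2 change of 1.56 ± 0.12 (SE; adjusted p = 6.42e-07). *Fignl1*, an ATPase that counteracts strand exchange, read 11.9, 12.3 and 11.2 CPM and 35.8, 37.1 and 42.2 CPM, a log2 change of 1.695 ± 0.14 (SE; adjusted p = 9.97e-07). In *Pole4*+/+ cells *Parpbp* read 15.4, 14.9 and 12.99 CPM and 16.5, 19.8 and 22.6 CPM, a log2 change of 0.43 ± 0.12 (SE; adjusted p = 0.0465). *Fignl1* read 24.6, 21.5 and 17.98 CPM and 25.1, 34.8 and 35.2 CPM there, a log2 change of 0.57 ± 0.13 (SE; adjusted p = 0.024). For both the lowest *Trp53*-/- value, replicate 1, lay just above the highest *Trp53*+/+ value, so the groups did not overlap.

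**Figure D2:**
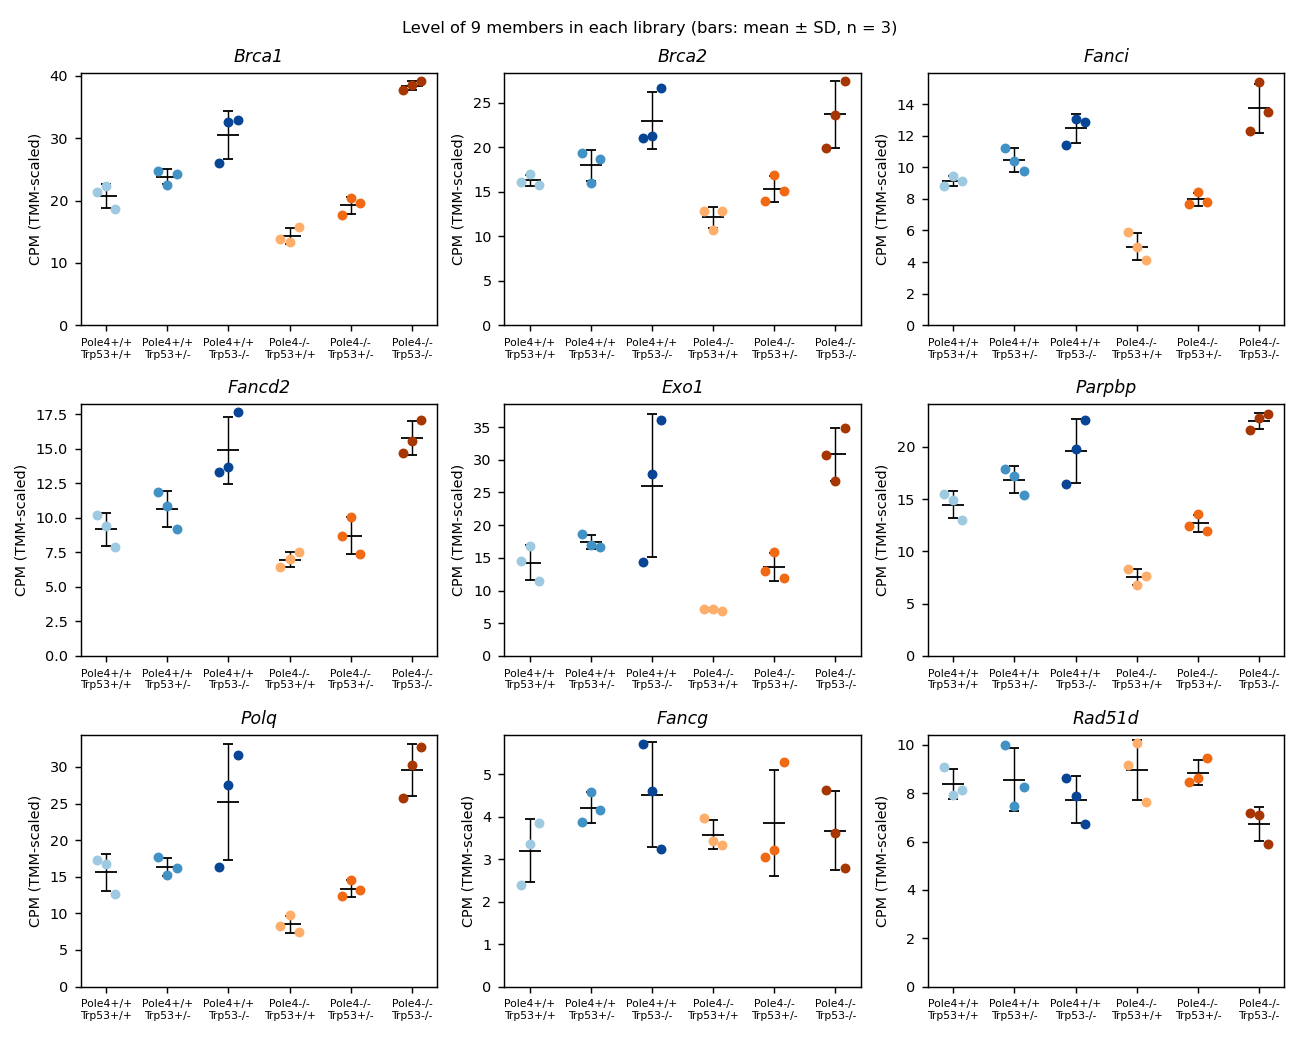
Level of 9 of the genes in each of the 18 libraries, in TMM-scaled CPM on the vertical axes, by genotype (points: libraries; bars: mean ± SD, n = 3). For 7 of the genes the *Pole4*-/- *Trp53*+/+ libraries are the lowest genotype and the *Trp53*-/- genotypes the highest, while *Fancg* and *Rad51d* do not follow this order.

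In *Pole4*+/+ cells fewer of the genes passed the test. *Brca1*, *Fancd2*, *Fignl1*, *Brca2* and *Parpbp* were called higher and no gene was called lower, where 2.23% of all genes tested were called higher and 2.37% lower. The median log2 fold change was 0.43, and 20 of the 39 genes were higher at an unadjusted p under 0.05, as were 10.7% of all genes. The count of 5 depended on *Pole4*+/+ *Trp53*-/- replicate 1 and on other single libraries. Without that replicate 21 genes were called higher and none lower, against 8.58% and 8.34% of all genes, and the median log2 fold change was 0.51. Without *Pole4*+/+ *Trp53*+/+ replicate 3 only *Brca1* was called, and without *Pole4*+/+ *Trp53*+/+ replicate 1 or *Pole4*+/+ *Trp53*-/- replicate 2 or 3 the count was 3, 2 and 2. *Brca1* was the 1 gene called whichever library was left out, but its call was lost with scaling by library totals (adjusted p = 0.0948) and in a fit of only these 6 libraries (adjusted p = 0.197), where none of the 39 genes was called. With *Trp53*-/- replicate 1 left out, the log2 fold change was 0.63 ± 0.09 for *Brca1*, 0.73 ± 0.15 for *Fancd2*, 0.68 ± 0.12 for *Fignl1*, 0.52 ± 0.14 for *Brca2* and 0.51 ± 0.11 for *Parpbp* (SE). Among the genes that this fit added to the calls, it was 1.125 ± 0.16 for *Exo1*, 0.88 ± 0.20 for *Rad54l*, 0.48 ± 0.13 for *Fanci* and 0.77 ± 0.12 for *Blm*. The other genes that it added were *Bard1*, *Palb2*, *Rad51ap1*, *Rad54b*, *Fanca*, *Fancb*, *Fancm*, *Brip1*, *Mre11a*, *Dna2*, *Eme1* and *Polq*. The mean log2 CPM of the 39 genes (prior count 2) was 3.33 in *Trp53*-/- replicate 1, 3.72 and 3.74 in the other two *Trp53*-/- libraries, and 3.07 to 3.29 in the *Trp53*+/+ libraries. The libraries of this comparison all read as female, apart from the trace of *Ddx3y* in that replicate. Skeletal muscle markers summed to 41.4 to 71.97 CPM in the *Trp53*+/+ and 19.5 to 25.8 CPM in the *Trp53*-/- libraries, with *Des* called lower, and neuron markers to 27.7 to 41.1 CPM and 46.03 to 67.6 CPM, with none called. Neither pair of ranges overlapped, the fibroblast marker *Pdgfra* was called higher, and the part of these markers was not tested.

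Cells with 1 copy of *Trp53* were compared next, for whether a single copy is enough to hold these genes at their *Trp53*+/+ level. In *Pole4*-/- cells 8 genes were higher in *Trp53*+/- than in *Trp53*+/+ libraries (*Brca1*, *Fanca*, *Fanci*, *Exo1*, *Blm*, *Eme1*, *Parpbp* and *Fignl1*) and none was lower, against 2.96% and 2.16% of all genes. *Parpbp* read 12.5, 13.6 and 11.9 CPM in *Trp53*+/- libraries, a log2 change of 0.73 ± 0.12 (SE; adjusted p = 0.00902) against the *Trp53*+/+ values given above. *Fanci* read 7.69, 8.41 and 7.78 CPM, a log2 change of 0.65 ± 0.13 (SE; adjusted p = 0.0185), and *Brca1* read 17.7, 20.5 and 19.6 CPM, a log2 change of 0.43 ± 0.11 (SE; adjusted p = 0.0355). None of these groups overlapped, and each *Trp53*+/- group lay below its *Trp53*-/- group. *Fignl1* read 18.1, 21.04 and 17.9 CPM, a log2 change of 0.68 ± 0.14 (SE; adjusted p = 0.0202). *Blm* read 16.9, 20.5 and 19.9 CPM and *Eme1* 5.18, 5.52 and 4.92 CPM, with log2 fold changes of 0.72 ± 0.18 and 0.90 ± 0.23. All 3 lay between the genotypes with 2 copies and none. The mean level ran in the order *Trp53*+/+, *Trp53*+/-, *Trp53*-/- for 31 of the 39 genes in *Pole4*-/- cells, against 31.4% of all genes tested. In *Pole4*+/+ cells it did so for 28, against 25% of all genes (27 and 22.6% without *Trp53*-/- replicate 1). There the *Trp53*+/- libraries are the male ones. The count of 8 became 0 without *Pole4*-/- *Trp53*+/+ replicate 2 or 3 or *Pole4*-/- *Trp53*+/- replicate 2, 3 without *Pole4*-/- *Trp53*+/+ replicate 1, 5 and 4 without *Pole4*-/- *Trp53*+/- replicates 1 and 3, and 3 with log2 *Xist* as a covariate. For 25 genes the *Trp53*+/- libraries all exceeded the *Trp53*+/+ libraries, where 21.4% of all genes did so. Epithelial markers summed to 23.2 to 31.7 CPM in these *Trp53*+/- and 10.5 to 16.7 CPM in the *Trp53*+/+ libraries, and the 3 tested were higher without overlap, though none was called. Their part in the result was not tested. In *Pole4*+/+ cells no gene was called between *Trp53*+/- and *Trp53*+/+ by edgeR or by DESeq2, where 0.496% and 0.407% of all genes were called higher and lower. There 1 of the 39 genes was higher and none lower at an unadjusted p under 0.05, where 5.19% of all genes were higher, and the median log2 fold change was 0.07. The *Trp53*+/- libraries of that comparison are all male and the *Trp53*+/+ all female, so sex and genotype cannot be told apart in it.

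Loss of *Pole4* alone was compared in *Trp53*+/+ cells. Of the 39 genes, 13 were lower in *Pole4*-/- *Trp53*+/+ than in *Pole4*+/+ *Trp53*+/+ libraries and none was higher, where 2.7% of all genes were called lower and 1.29% higher. The 13 were *Brca1*, *Xrcc2*, *Rad54l*, *Fancb*, *Fanci*, *Brip1*, *Mre11a*, *Exo1*, *Blm*, *Eme1*, *Polq*, *Parpbp* and *Fignl1*, and the median log2 fold change of all 39 was -0.52. These values share the *Pole4*-/- *Trp53*+/+ libraries with the *Trp53* comparison above, so they are not a separate measure of it. For *Parpbp*, 15.4, 14.9 and 12.99 CPM in *Pole4*+/+ libraries stood against 8.31, 6.76 and 7.63 CPM in *Pole4*-/-, a log2 change of -0.93 ± 0.12 (SE; adjusted p = 0.00452). For *Fanci*, 8.83, 9.46 and 9.14 CPM stood against 5.88, 4.92 and 4.15 CPM, a log2 change of -0.85 ± 0.13 (SE; adjusted p = 0.00952). In both genes the highest *Pole4*-/- library was below the lowest *Pole4*+/+ library by more than the spread within either genotype. *Fignl1* fell by 0.85, *Fancb* by 0.96, *Polq* by 0.88 and *Brca1* by 0.54 on the log2 scale, with adjusted p between 0.0158 and 0.0309. The count depended on single libraries and on the covariate used. It was 15 without *Pole4*+/+ *Trp53*+/+ replicate 3 and 1 to 3 without any other of the 6 libraries. Only *Parpbp* was called in every such fit, and with log2 *Xist* as a covariate 1 gene was called. Under the 11 alternatives the log2 change stayed between -1.20 and -0.87 for *Parpbp* and between -1.11 and -0.79 for *Fanci*. The part of sex in the count was not tested. The *Pole4*+/+ *Trp53*+/+ libraries all read as female and 2 of the 3 *Pole4*-/- *Trp53*+/+ libraries as male. *Cdkn1a*, the TRP53 target that blocks the cell cycle, measured 342 to 363 CPM in *Pole4*-/- *Trp53*+/+ and 232 to 251 CPM in *Pole4*+/+ *Trp53*+/+ libraries, and its part in the result was not tested. The summed fibroblast markers stood at 25350 to 32500 CPM in *Pole4*-/- and 16660 to 22940 CPM in *Pole4*+/+ libraries of this comparison, with 1 of 11 called higher. The summed epithelial markers stood at 10.5 to 16.7 CPM and 20.8 to 34.4 CPM, with none of 3 tested called. Neither pair of ranges overlapped, and the part of these markers was not tested.

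At the other *Trp53* genotypes the 39 genes gave no call for *Pole4*. In *Trp53*+/- cells 8 genes were lower at an unadjusted p under 0.05, as were 2.76% of all genes, with a median log2 fold change of -0.24. Of all genes 0.00637% were called lower there and 0% higher. In *Trp53*-/- cells 3 genes were higher at an unadjusted p under 0.05, as were 3.47% of all genes, with a median log2 fold change of 0.14 (-0.27 with scaling by library totals, under which the median of all genes was -0.44). Of all genes 0.00637% were called higher there and 0% lower. DESeq2 called none of the 39 in either. *Parpbp* measured 17.9, 17.2 and 15.4 CPM in *Pole4*+/+ *Trp53*+/- and 12.5, 13.6 and 11.9 CPM in *Pole4*-/- *Trp53*+/- libraries, a log2 change of -0.42 ± 0.12 (SE; adjusted p = 0.457). In *Trp53*-/- libraries it measured 16.5, 19.8 and 22.6 CPM and 21.6, 22.7 and 23.1 CPM, a log2 change of 0.20 ± 0.12 (SE; adjusted p = 0.525). Without *Pole4*+/+ *Trp53*-/- replicate 1 this value was 0.098 ± 0.11 (SE), the median of the 39 genes 0.022, and none was called. The *Trp53*+/- groups were apart with *Pole4*-/- the lower, and the *Trp53*-/- groups overlapped. By genotype mean, *Pole4*-/- *Trp53*+/+ cells had the lowest level for 32 of the 39 genes, and the highest level was in *Pole4*-/- *Trp53*-/- cells for 28 and in *Pole4*+/+ *Trp53*-/- cells for 7. Of all genes tested 33.2%, 27% and 14.2% were so placed. Without *Pole4*+/+ *Trp53*-/- replicate 1 the 3 counts were 32, 19 and 15, so the order of the *Trp53*-/- genotypes depended on that library.

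**Figure D3:**
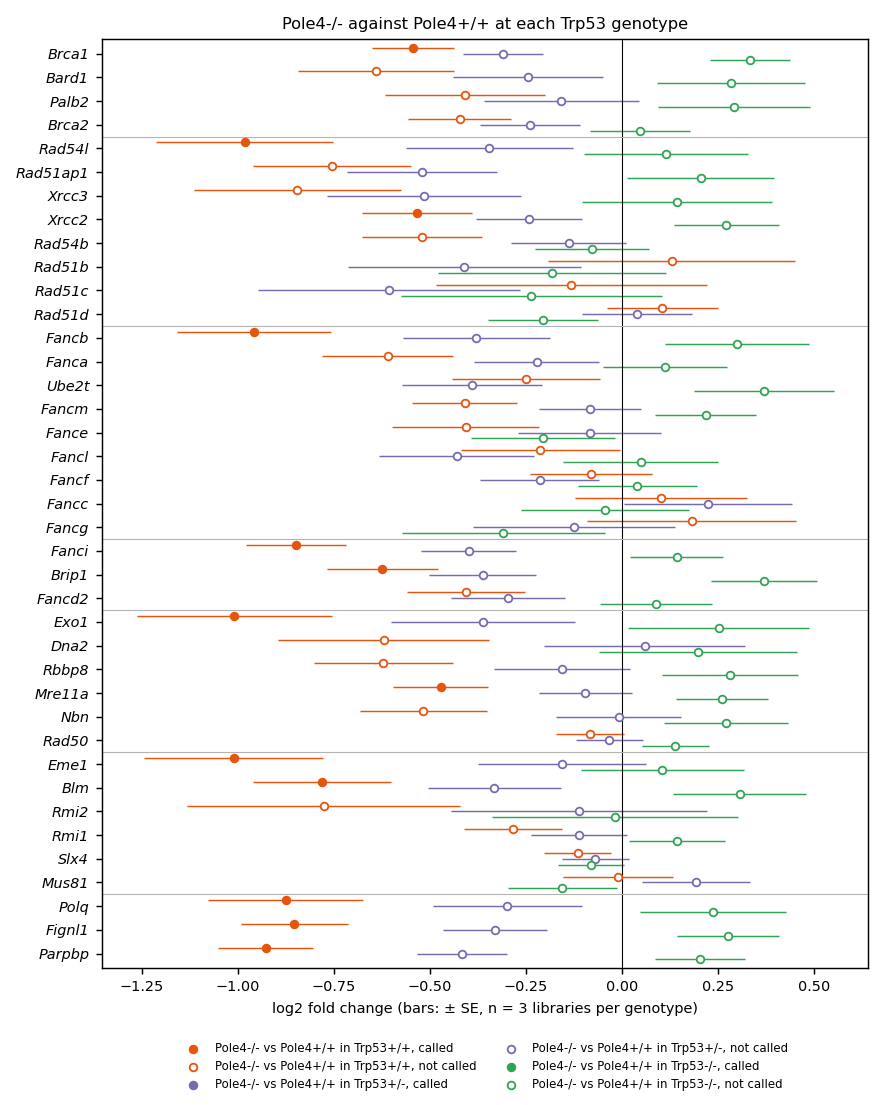
Log2 fold change of each gene in *Pole4*-/- against *Pole4*+/+ cells, on the horizontal axis, in *Trp53*+/+ (orange), *Trp53*+/- (purple) and *Trp53*-/- (green) cells, with bars of ± 1 SE (n = 3 libraries per genotype); filled points passed an adjusted p of 0.05. The medians are -0.52, -0.24 and 0.14, and the 13 filled points are all orange and left of 0.

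An interaction term in the same fit asked whether *Trp53* loss had another effect in *Pole4*-/- than in *Pole4*+/+ cells. The effect was larger in *Pole4*-/- cells for *Brca1*, *Fanci*, *Brip1*, *Parpbp* and *Fignl1* and smaller for none, where 0.178% and 0.153% of all genes were called higher and lower. For *Parpbp* the difference of the log2 fold changes was 1.13 ± 0.17 (SE; adjusted p = 0.0313), from 1.56 ± 0.12 in *Pole4*-/- and 0.43 ± 0.12 in *Pole4*+/+ cells. For *Fignl1* it was 1.13 ± 0.19, for *Brip1* 0.99 ± 0.20, for *Fanci* 0.99 ± 0.18 and for *Brca1* 0.88 ± 0.15, with adjusted p of 0.0313, 0.0486, 0.0362 and 0.0313. In all, 26 of the 39 genes had a larger effect in *Pole4*-/- cells at an unadjusted p under 0.05, where 13.9% of all genes did, and the median difference was 0.73. This result was not stable: leaving out 1 of the 12 libraries gave 0 to 22 calls, none of them made in every fit. It was 0 without any 1 of the *Pole4*-/- *Trp53*-/- libraries, without *Pole4*-/- *Trp53*+/+ replicate 2 or 3 and without *Pole4*+/+ *Trp53*+/+ replicate 1 or 2. It was 2 without *Pole4*-/- *Trp53*+/+ replicate 1 and 13 without *Pole4*+/+ *Trp53*+/+ replicate 3. Without *Pole4*+/+ *Trp53*-/- replicate 1, 2 or 3 it was 9, 18 and 22. Calls over all genes rose too, from 52 in the full fit to 3242 without replicate 3. Without replicate 1, 0.871% of all genes were called higher and 0.194% lower. The fit without replicate 1 kept the 5 genes, with differences from 0.79 (*Brca1*) to 1.03 (*Parpbp*).

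Lists of cell-cycle genes were read beside the 39 genes because many of the latter are S- and G2-phase genes. In *Trp53*-/- against *Trp53*+/+ libraries of *Pole4*-/- cells all 20 S-phase genes and all 20 mitotic genes were called higher, with median log2 fold changes of 1.59 and 1.62, above the 1.12 of the recombination and Fanconi genes. *Prim1* (the primase subunit), *Tyms* (thymidylate synthase) and *Mcm4* (a helicase subunit) had log2 fold changes of 1.60 ± 0.18, 1.35 ± 0.15 and 1.48 ± 0.17 (SE). The mitotic *Nusap1*, *Top2a* and *Kif11* had 1.41 ± 0.13, 1.68 ± 0.15 and 1.65 ± 0.16. With *Pole4* lost in *Trp53*+/+ cells, 13 S-phase and 19 mitotic genes were called lower. The library that stood apart was low in these lists as well: mean log2 CPM was 5.11 for the S-phase genes in *Pole4*+/+ *Trp53*-/- replicate 1 against 5.92 and 6.07 in the other two, and 6.13 against 6.73 and 6.93 for the mitotic genes. In *Pole4*+/+ cells 1 S-phase and 5 mitotic genes were called higher without *Trp53*, with medians of 0.55 and 0.54, and 19 and 20 without *Trp53*-/- replicate 1. For the difference between the *Pole4* backgrounds the medians of these lists were 1.04 and 1.09, beside 0.73 for the 39 genes. All 20 genes of each list were higher in it at an unadjusted p under 0.05, and 0 and 3 at the adjusted threshold. Without *Pole4*+/+ *Trp53*-/- replicate 1 these were 2 and 13, with medians of 0.77 and 0.88 beside 0.53 for the 39 genes. The part of cell-cycle activity in the levels of the 39 genes was not tested.

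**Figure D4:**
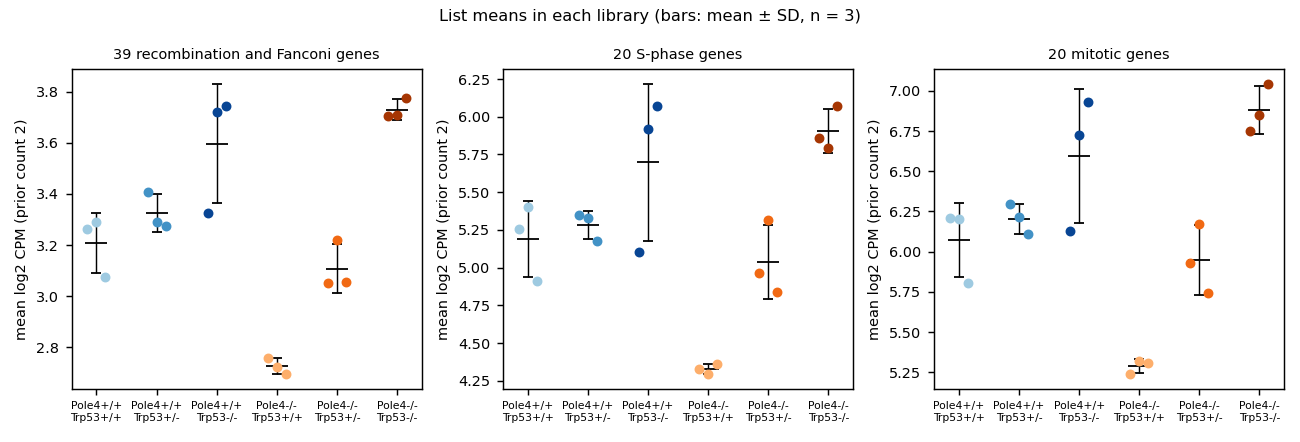
Mean log2 CPM (prior count 2) of the 39 recombination and Fanconi genes, of 20 S-phase genes and of 20 mitotic genes in each library, by genotype (points: libraries; bars: mean ± SD, n = 3). In all 3 panels the *Pole4*-/- *Trp53*+/+ libraries are the lowest, and 1 *Pole4*+/+ *Trp53*-/- library lies below the other two of its genotype.

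Other genes of the pathway were read from a list that was also drawn up with earlier results known. Of 41 further recombination and Fanconi genes tested, 18 were higher and 3 lower in *Pole4*-/- *Trp53*-/- than in *Pole4*-/- *Trp53*+/+ cells, with a median log2 fold change of 0.28. *Trip13* (an ATPase that remodels HORMA proteins), *Gen1* (a Holliday junction resolvase) and *Usp1* (which removes ubiquitin from FANCD2) led by p with 1.88 ± 0.20, 1.57 ± 0.17 and 1.63 ± 0.18 (SE). *Fbh1*, *Ercc4* and *Fan1* were the 3 lower, at -0.49, -0.43 and -0.61. Of 18 end-joining genes 5 were higher and 2 lower, where 21.8% and 20.8% of all genes were, with a median of -0.03: *Rif1*, *Parp1* and *Xrcc1* had 1.17 ± 0.12, 1.07 ± 0.13 and 0.71 ± 0.10, and the 2 lower ones were *Paxx* (-1.44 ± 0.35) and *Trp53bp1* (-0.39 ± 0.13). In *Pole4*+/+ cells 1 of the 41 and 2 of the 18 were higher and none was lower, where 2.23% of all genes were called higher. Without *Pole4*+/+ *Trp53*-/- replicate 1 these counts were 11 and 3 higher and 1 and 0 lower, against 8.58% and 8.34% of all genes.

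Other values differed between these genotypes. The summed level of 11 fibroblast markers was 25350 to 32500 CPM in *Pole4*-/- *Trp53*+/+ and 14200 to 16970 CPM in *Pole4*-/- *Trp53*-/- libraries, with 5 markers called lower and 1 higher. The summed level of 7 epithelial markers was 10.5 to 16.7 CPM and 22.3 to 42.2 CPM, with 2 of the 3 tested called higher and the defining *Epcam* and *Cdh1* at no more than 0.243 and 0.332 CPM. Ribosomal RNA took 7.11% to 42.5% of the counts in *Pole4*-/- *Trp53*+/+ and 24.7% to 30.04% in *Pole4*-/- *Trp53*-/- libraries. With its share as a covariate 29 of the 39 genes were called higher and 1 lower, the counts given above. The summed level of 7 neuron markers was 37.9 to 52.9 CPM and 71.99 to 75.9 CPM, with 2 of the 5 tested, *Stmn2* and *Elavl4*, called higher. That of 8 skeletal muscle markers was 48.9 to 68.8 CPM and 21.3 to 30.4 CPM, with 1 of the 6 tested, *Des*, called lower. Macrophage markers summed to 11.4 to 26.6 CPM and 7.54 to 37.2 CPM and endothelial ones to 2.77 to 5.09 CPM and 3.77 to 6.17 CPM, with none called. The part of any of these markers in the results was not tested.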

How the data were processed

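RNA-seq was performed on 18 MEF libraries. The authors trimmed paired-end reads, aligned them with STAR 2.5.2 to GRCm38 and estimated gene counts with RSEM 1.3.0; the deposited values are expected counts, of which 6.14% were not whole. The kit was not stated to keep strand. Here the expected counts were rounded and analysed in R 4.3.3 with edgeR 4.0.16: a low-count filter (filterByExpr), TMM scaling, a model of 6 genotype means fitted to the 18 libraries with 12 residual degrees of freedom, robust quasi-likelihood F-tests and Benjamini-Hochberg adjustment over 15710 genes, with calls at an adjusted p under 0.05. An SE is the log2 fold change divided by the square root of F. Symbols and positions came from GENCODE M21, which matched 51633 identifiers. The fit was tested on simulated data. Members and lists were chosen with earlier results of these data known. All 39 members are named; full values go to the 2 highest and the lowest of each role (highest and lowest where a role has up to 4) in *Trp53*-/- against *Trp53*+/+ of *Pole4*-/- cells, and to at most 6 called genes of lowest p in other comparisons. Of the other lists, the 3 genes of lowest p are named; *Fbh1*, *Ercc4*, *Fan1*, *Paxx* and *Trp53bp1* were chosen after their values were seen. Alternatives covered scaling, low-count filters, DESeq2 1.42.0, *Xist* and ribosomal RNA as covariates, smaller fits, a replicate block and left-out libraries. No pair of replicates looked like repeat sequencing. Replicate numbers were taken to pair libraries where all 3 correlations of same-numbered deviations exceeded 0.1; this held for the *Pole4* genotypes of *Trp53*+/- cells (0.26, 0.50 and 0.29), where the block changed no call.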

Additional observations from a re-analysis of the deposited data

Results flagged for a closer look

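For 5 genes the effect of *Trp53* loss differed between the *Pole4* backgrounds by a test of the difference itself. The log2 fold change in *Pole4*-/- cells minus that in *Pole4*+/+ cells was 0.88 for *Brca1*, 0.99 for *Fanci*, 0.99 for *Brip1*, 1.13 for *Parpbp* and 1.13 for *Fignl1* (edgeR's quasi-likelihood test, adjusted p of 0.031 to 0.049). In all 5 genes each of the 3 *Pole4*-/- *Trp53*-/- libraries exceeded each of the 3 *Pole4*-/- *Trp53*+/+ libraries, where 28.5% of all genes showed this. In *Pole4*+/+ cells the *Trp53*-/- libraries also all exceeded the *Trp53*+/+ libraries for *Brca1*, *Fanci*, *Parpbp* and *Fignl1*, but not for *Brip1*. The separation is therefore no measure of the difference between the backgrounds. None of the 5 calls was kept in every fit with 1 library left out. All 5 calls were lost with log2 *Xist* as a covariate, where the adjusted p of the 5 ran from 0.063 to 0.073 and the differences from 0.88 to 1.12.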

How the results depend on the processing

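The count of genes called in *Trp53*-/- against *Trp53*+/+ of *Pole4*-/- cells (30) was 28 to 30 under 11 alternatives and 29 to 30 with 1 library left out. The other counts moved, and the cause was not tested. For *Trp53*-/- in *Pole4*+/+ cells (5) it was 9 with upper-quartile scaling, 0 with library totals, 3 without a filter, 12 at a mean of at least 50 counts, 0 in a fit of only the libraries compared, 13 with DESeq2, 3 with the ribosomal RNA share as a covariate, and 1 to 21 with 1 library left out. For *Trp53*+/- in *Pole4*-/- cells (8) it was 17 with library totals, 3 with *Xist* and 0 to 5 with 1 library left out. For *Pole4* in *Trp53*+/+ cells (13) it was 22 with library totals, 1 with *Xist*, 21 in the smaller fit and 1 to 15 with 1 library left out. For the interaction (5) it was 8 with upper quartiles or DESeq2's size factors, 0 with library totals, *Xist*, the ribosomal RNA share or the smaller fit, 10 without a filter, at a mean of 50 counts, with ribosomal RNA genes removed or with the replicate block, 19 with DESeq2, and 0 to 22 with 1 library left out. The 3 counts of 0 were 0 throughout, including with 1 library left out. The ribosomal RNA alternatives were chosen after seeing the data. With the block the other counts were 30, 4, 6, 0, 12, 0 and 0 in the order of the report's comparisons, with the *Trp53*+/- ones after *Trp53*-/-. Outside *Trp53*+/- cells the numbers did not meet the rule for pairing, although 13 of 18 libraries correlated best with their own number. Whether same-numbered libraries are linked there was not settled. Library totals moved the median of all genes from -0.01 to 0.29 (*Trp53*+/- in *Pole4*-/-), from 0.01 to -0.28 (*Pole4* in *Trp53*+/+) and from -0.02 to -0.44 (*Pole4* in *Trp53*-/-). *Fancg* in *Pole4*-/- cells (0.03) turned to -0.060 with upper quartiles, -0.024 with library totals, -0.018 at a mean of 50 counts, -0.0346 with *Xist* and as low as -0.17 (up to 0.20) with 1 library left out; *Mus81* in *Pole4*+/+ cells (-0.09) turned to 0.00018 with library totals and to 0.031 without *Pole4*+/+ *Trp53*+/+ replicate 3 (-0.16 without replicate 1). Over all genes the counts of calls under the 11 alternatives ranged from 3722 to 7194 (6699), 90 to 1290 (723), 181 to 2682 (805), 39 to 405 (142), 11 to 3358 (626), 0 to 38 (1), 0 to 27 (1) and 0 to 1755 (52), in the same order with the interaction last. Low counts (*Xrcc3*, *Rmi2*, *Rad51b*, *Rad51c*) limit precision.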
